A study of Mus musculus with 16 samples.

Results

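Cytosolic ribosomal proteins are the protein parts of the small and the large ribosomal subunit, and their genes were followed here across 6 treatments of mouse brown adipocytes. The members were found by symbol: Rpl or Rps followed by a digit, Rplp0 to Rplp2, and Rpsa, with the S6 kinases, pseudogene symbols and binding proteins left out. The rule took in 84 of the 20295 genes of the deposited count table. Of these, 80 had enough reads to be tested, among 12786 genes tested in all.

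The study asked whether the transcriptional response of brown adipocytes to lipolysis needs the released fatty acids to be activated or oxidized. Mouse brown preadipocytes, which the study states were immortalized with SV40 large T antigen, were differentiated and treated on day 7, and their RNA was sequenced. SR-3420, a ligand that sets off lipolysis through ABHD5, was given at 10 µM for 3 h according to the sample labels, whereas the figure legend of the study states a higher dose. Triacsin C, an inhibitor of long-chain acyl-CoA synthetases, was given at 5 µM and etomoxir, an inhibitor of the carnitine palmitoyltransferase that brings fatty acids into mitochondria, at 50 µM, each starting 1 h before the stimulation. The 6 groups were vehicle (DMSO) with 2 samples, SR-3420 with 2, triacsin C with 3, triacsin C + SR-3420 with 3, etomoxir with 3 and etomoxir + SR-3420 with 3. The vehicle samples carry the replicate numbers 2 and 3, the SR-3420 samples 1 and 3, and the samples of every other group 1 to 3. The study describes the samples of a group as independent experiments, and the p-values measure the spread between these samples. The total count per sample ran from 9452861 to 25670624, with a median of 13602886.

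Ribosomal protein genes are transcribed at high rates in growing cells, and their messages are a large share of the mRNA pool of most tissues. Their mRNAs are known for a 5′ terminal oligopyrimidine (TOP) tract, a C at the cap followed by a run of pyrimidines, through which mTORC1 and the RNA-binding protein LARP1 control their translation. Fed and growing cells translate these messages, whereas starved or stressed cells store them, so that the mRNA level alone does not give the rate of synthesis.

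The start of each gene was read from the mouse genome (build mm9, NCBIM37) as a window of 30 bases, 15 before the annotated start and 15 from it on, so that the 16th base is the annotated start. The windows were searched on the gene's own strand for unbroken runs of C and T. A run of at least 8 pyrimidines that reached within 10 bases of the start was found in 32 of the 84 ribosomal protein genes (38.1%), against 2278 of the 20295 genes of the table (11.2%). A C at the annotated start itself followed by at least 4 pyrimidines was found in 14 members (16.7%), against 427 of all genes (2.10%). Counting only runs that reached within 10 bases of the start, the median longest run was 6 bases in the members and 4 in all genes. Such a run is a description of the letters around an annotated start. The start used by the cells was not measured.

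The following windows, with the longest pyrimidine run near the start (within 10 bases) in capitals, belong to members that passed the test in at least 1 comparison described further on, and they are shown so that the runs of these members can be compared. Rps20 lies on the minus strand at chr4:3762733-3762762, Rpl4 on the plus strand at chr9:64021179-64021208, Rps28 on the minus strand at chr17:33961429-33961458 and Rpl13 on the plus strand at chr8:125626235-125626264. These 4 have runs of 9 to 12 bases. Rpl10a lies on the plus strand at chr17:28465401-28465430, Rpl12 on the plus strand at chr2:32817217-32817246, Rpl6 on the plus strand at chr5:121654495-121654524, Rpl27 on the plus strand at chr11:101303544-101303573, Rpl23a on the minus strand at chr11:77997072-77997101, Rpl9 on the minus strand at chr5:65782656-65782685 and Rps3a1 on the minus strand at chr3:85946576-85946605. These 7 have runs of 2 to 7 bases.
Rps20: cgccgtccggCCCCTCCTTTCTgagccccg
Rpl4: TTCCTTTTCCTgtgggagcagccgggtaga
Rps28: cccctgctcacgtgaCTCCTCTCCgccaga
Rpl13: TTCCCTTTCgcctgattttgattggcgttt
Rpl10a: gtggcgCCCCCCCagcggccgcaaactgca
Rpl12: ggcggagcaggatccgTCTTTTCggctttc
Rpl6: tggtcaCCTCCCgtcattgcttatagaccg
Rpl27: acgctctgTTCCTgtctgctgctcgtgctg
Rpl23a: gagCCTCCattctataagctcatgggaatt
Rpl9: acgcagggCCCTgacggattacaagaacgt
Rps3a1: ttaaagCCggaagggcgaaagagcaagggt

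The following members passed no test without a block, covariate or offsets, which are described further on, though each passed in some fits with them. Rpl35 (minus strand, chr2:38860637-38860666) and Rpl32 (minus strand, chr6:115758747-115758776) are shown for their long runs of 18 and 17 bases. Rpl8 (plus strand, chr15:76734486-76734515), the member with the highest level, is shown for a longest run near the start of 3. The capitals again mark the longest run within 10 bases of the start, and longer ones may lie farther off.
Rpl35: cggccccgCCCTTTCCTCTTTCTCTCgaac
Rpl32: cgccgccgCCTCTTCCTTCTTCCTCggcgc
Rpl8: agataaggctgcgttgaCCCgtctatttcc

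The level of a member was its mean normalized count over the 16 samples per kilobase of counted length, the length over which the authors counted reads. A normalized count is a count scaled to a library of the mean effective size. The median level of the 80 tested members was 541 per counted kilobase (quartiles 129 and 1976), against 159 for all genes tested (quartiles 46.0 and 406). Rpl8, a protein of the large subunit near the peptidyl transferase centre, had the highest level at 23250 per counted kilobase. Rplp0, the base of the P stalk that recruits translation factors, followed at 15811 and Rps15, a protein of the small subunit, at 14901. Rpl19, a protein of the large subunit, had the lowest level of the tested members at 31.3 per counted kilobase. The proteins of a subunit are built into it in matched amounts, whereas the reads counted for their genes differed widely.

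Many ribosomal protein genes have processed copies elsewhere in the genome, and reads shared with a copy may be dropped or misplaced. A copy was counted where at least 80% of a member's transcript matched the genome elsewhere with at least 90% identity. No copy was found for 38 members, at least 10 were found for 20, and Rpl7a had the most with 74. The level per counted kilobase was higher in members with a larger percentage of windows of 50 bases that occur nowhere else, with a Spearman rho of 0.40 across 79 members, which are not independent replicates. The 27 members with at least 50% unique windows had a median level of 645, and the 52 members under 50% a median of 339. In the 13 members under 10% the median was 124, and in the 5 members of at least 90% it was 3864. Of the members that passed a test, Rps20 had 89.9% unique windows, Rpl4 82.2% and Rpl12 50.9%. Unique windows and GC content were taken over the whole reference transcript, which for Rps20 (3706 bases, 502 of counted length) and Rpl12 (1242 and 638) is longer than the counted part and may describe it poorly. Others were lower, at 28.6% for Rpl6, 21.2% for Rps3a1, 18.9% for Rps28, 15.9% for Rpl27, 14.8% for Rpl10a, 13.1% for Rpl13, 5.51% for Rpl23a and 4.80% for Rpl9. Values of these 8 genes are uncertain in that respect, since how reads with several matches were treated is not stated.

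**Figure D1:**
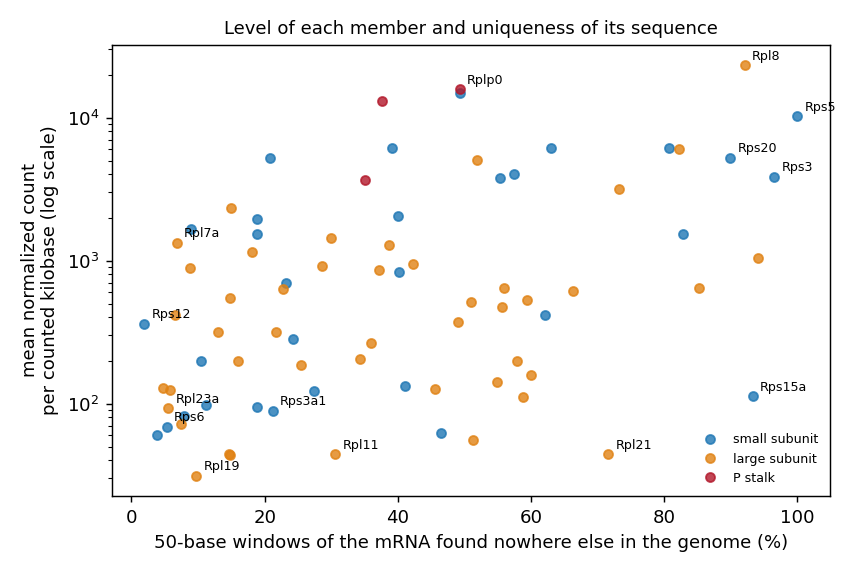
Level of each tested ribosomal protein gene (mean normalized count per counted kilobase over the 16 samples, log axis) against the percentage of its transcript's windows of 50 bases that occur once in the genome; each point is a gene, coloured by subunit. The median level was 645 for the 27 members with at least 50% unique windows and 339 for the 52 members under 50%.

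Counted lengths also set members apart. The tested members had a median counted length of 679 bases, against 2786 for all genes tested. Rpl26, Rpl30 and Rpl34, all of the large subunit, were counted over 23, 43 and 79 bases. For Rps27, a protein of the small subunit, the counted length was 1 base and the 16 samples together held 4 counts, so it was not tested. The tissue-restricted paralogues Rpl10l, Rpl3l and Rpl39l were not tested either, with 30, 63 and 15 counts in all samples together. These 3 symbols name copies that take the place of Rpl10, Rpl3 and Rpl39 in testis or muscle. A further 6 members lie over another gene of the table: Rpl32 over Cand2, Rpl31 over Tbc1d8, Rps25 over Ccdc84, Rps27a over 1700034F02Rik, Rpl35 over Wdr38 and Rpl5 over Fam69a.

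Members varied more between samples of a group than genes at large. The median within-group SD of the log2 normalized count was 0.37 in the tested members and 0.30 in all genes tested. Rpl6 (0.07), Rps20 (0.08) and Rpl7 (0.11) varied least. Rpl22l1, a paralogue of Rpl22, varied most with 1.01, ahead of Rps25 (0.88) and Rpl15 (0.74).

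Part of the variation between samples went with base composition. The first principal component of the 80 tested members over the 16 samples, treatment differences included, held 49.8% of the variance. Its loadings had a Spearman rho of 0.58 with the GC content of the transcripts across the members. A sample's deviation from its group mean was compared with GC content across 79 members. The rho was positive in vehicle replicate 2 (0.53), SR-3420 replicate 1 (0.49), triacsin C replicate 2 (0.53), triacsin C + SR-3420 replicates 1 and 2 (0.45 and 0.55), etomoxir replicates 1 and 2 (0.50 and 0.21) and etomoxir + SR-3420 replicate 1 (0.59). It was negative in the other samples, down to -0.61 in triacsin C + SR-3420 replicate 3. Every replicate 3 was among the negative ones. In etomoxir replicate 3 the members with GC above the members' median of 50.7% had a median deviation of -0.43, while those at or below it had 0.19. In etomoxir replicate 1 the same medians were 0.36 and -0.24. Over all genes the rho reached 0.80 in etomoxir + SR-3420 replicate 1 and -0.83 in etomoxir replicate 3. Of 35 pairs of samples from different groups with the same number, 27 had deviations correlated above 0.1 (median 0.51). Samples with different numbers also reached high values, up to 0.76 for vehicle replicate 2 with etomoxir + SR-3420 replicate 1, while triacsin C replicate 1 was negative with every other replicate 1. Only 11 of 16 samples correlated best with a sample of their own number. Deviations in a group of 2 are mirror images by construction, so these values describe the pairing loosely. Vehicle and SR-3420 lack different numbers, so each test was also fitted with the replicate number as a block.

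**Figure D2:**
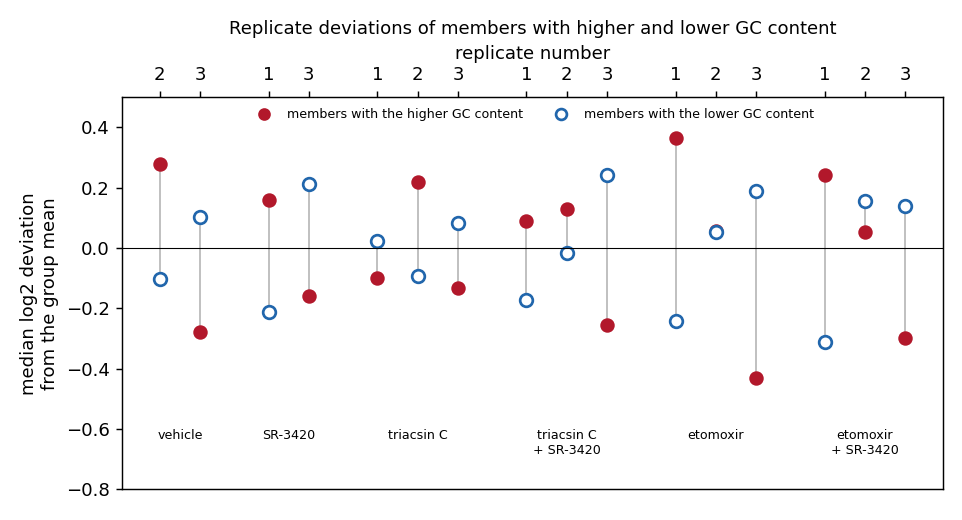
Deviation of each sample from its group mean (median log2 difference) for ribosomal protein genes with a transcript GC content above the members' median and at or below it; samples are grouped by treatment, with replicate numbers along the top. In etomoxir replicate 3 the medians were -0.43 above and 0.19 at or below, and in etomoxir replicate 1 they were 0.36 and -0.24.

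Taken as shares of all counts, the 84 members held 0.892% and 0.708% in vehicle, 1.096% and 0.937% in SR-3420, 0.982%, 1.16% and 0.992% in triacsin C, and 1.15%, 1.16% and 0.978% in triacsin C + SR-3420. The shares were 0.895%, 0.802% and 0.636% in etomoxir and 1.05%, 0.998% and 0.781% in etomoxir + SR-3420. The samples with SR-3420 or triacsin C thus lay above both vehicle samples except etomoxir + SR-3420 replicate 3. The group mean was 0.800% ± 0.130 (SD, n = 2) in vehicle and 1.05% ± 0.103 (SD, n = 3) in triacsin C.

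A steadier measure was the median over the tested members of the log2 normalized count relative to the vehicle mean. The vehicle samples had medians of 0.11 and -0.11. The SR-3420 samples had 0.27 and 0.28, the triacsin C samples 0.39, 0.55 and 0.43, and the triacsin C + SR-3420 samples 0.55, 0.59 and 0.57. The etomoxir samples had 0.07, 0.02 and -0.14, and the etomoxir + SR-3420 samples 0.34, 0.43 and 0.26. All 11 samples that received SR-3420 or triacsin C therefore lay above the 5 vehicle and etomoxir samples, while the median of all genes stayed between -0.05 and 0.08 in every sample. The pooled SD within groups was 0.088. These are RNA pools of whole cultures, in which fewer cells of a type and less RNA per cell cannot be told apart.

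**Figure D3:**
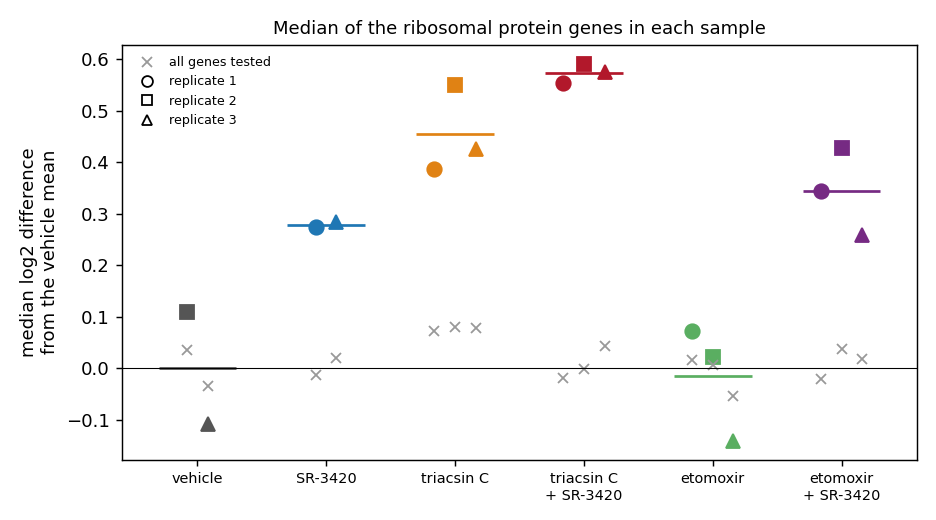
Median over the tested ribosomal protein genes of the log2 normalized count relative to the vehicle mean, for each of the 16 samples by group, with bars for group means and crosses for all genes tested. The vehicle and etomoxir samples lie between -0.14 and 0.11 and the samples with SR-3420 or triacsin C between 0.26 and 0.59.

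SR-3420 against vehicle asks what lipolysis without an inhibitor did. Rps3a1, a small subunit protein that contacts initiation factors, had normalized counts of 43.8 and 57.8 in vehicle and 89.9 and 96.8 in SR-3420. Rps20, a small subunit protein of the head of the subunit, had 2174 and 1999 in vehicle and 2886 and 2751 in SR-3420. For each gene both treated samples lay above both vehicle samples. Rps3a1 rose 1.84-fold (log2FC 0.88 ± 0.23 SE, adjusted p = 0.0355; edgeR quasi-likelihood test, Benjamini-Hochberg over 12786 genes). Rps20 rose 1.35-fold (log2FC 0.43 ± 0.12 SE, adjusted p = 0.0493). They were the 2 members of 80 that rose, against 4.75% of all genes tested, and 0 fell by this edgeR test, against 2.79%. At an unadjusted p under 0.05 there were 12 members, against 21.8% of all genes, and DESeq2 called 4, against 8.44%, with Rpl12 and Rpl6 added, which are named after their values were seen.

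Below the threshold the members leaned upward. Of the 80, 61 had a log2FC above 0, against 49.6% of all genes, and their median was 0.29 (quartiles 0.02 and 0.56), with an all-gene median of -0.00. With library totals alone in place of TMM factors, which moved the all-gene median to -0.12, the members' median was 0.18 and 52 lay above 0. Members with GC above the members' median had a median log2FC of 0.47, with 37 of 39 above 0, and those at or below it had 0.07, with 23 of 40 above 0. The lower value turned to -0.03 with library totals alone and to -0.17 without SR-3420 replicate 3. Neither call held without vehicle replicate 2, vehicle replicate 3, SR-3420 replicate 1 or SR-3420 replicate 3, where the count was 0 each time and the adjusted p ran from 0.0750 to 0.220 for Rps3a1 and from 0.105 to 0.262 for Rps20. The log2FC in these 4 fits ran from 0.69 to 1.09 for Rps3a1 and from 0.38 to 0.50 for Rps20, while the share of all genes called was 2.33% to 3.86%, down from 7.54%. Over all 16 alternatives the adjusted p ran from 0.00478 to 0.344 for Rps3a1 and from 0.00222 to 0.437 for Rps20. The Rps20 call was lost in 12 of them. Among these were offsets for GC content, whether alone, with the replicate block or with offsets for the counted length. Its log2FC over the 16 alternatives ran from 0.32 to 0.75. The Rps3a1 call was lost in 7 and held with each of the GC offsets. With the replicate block 12 members passed, at a median of 0.36, while the same fit called 19.1% of all genes.

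Triacsin C against vehicle asks what blocking fatty acid activation did to cells without SR-3420. The study reports that triacsin C alone strongly raised the fatty acids released by unstimulated cells, so these were not at their vehicle level. Rpl10a, a protein of the large subunit's L1 stalk region, had normalized counts of 321 and 229 in vehicle and 547, 751 and 537 in triacsin C. Rpl27, a protein of the large subunit, had 81.3 and 117 in vehicle and 172, 143 and 174 in triacsin C. Rpl13, also of the large subunit, had 161 and 192 in vehicle and 260, 273 and 280 in triacsin C. In all of these genes the lowest triacsin C sample exceeded the highest vehicle sample. Rps20 had 2809, 2974 and 3214 in triacsin C, against 2174 and 1999 in vehicle. Rpl6, a large subunit protein, had 897 and 941 in vehicle and 1198, 1268 and 1163 in triacsin C. These groups did not overlap either.

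Rpl10a rose 2.22-fold with triacsin C (log2FC 1.15 ± 0.30 SE, adjusted p = 0.0243, edgeR quasi-likelihood). Rpl27 rose 1.65-fold (adjusted p = 0.0294), Rpl13 1.54-fold (adjusted p = 0.0248), Rps20 1.44-fold (adjusted p = 0.00832) and Rpl6 1.32-fold (adjusted p = 0.0283). In all, 6 of 80 members rose, which compares with 4.77% of all genes, a similar share, and 0 members fell, against 6.94% of all genes. At the same time 23 members had an unadjusted p under 0.05, against 24.3% of all genes, and DESeq2 called 7, against 10.6%.

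With triacsin C a log2FC above 0 was found in 78 of 80 members, against 56.9% of all genes, and the median was 0.47 (quartiles 0.36 and 0.52) beside an all-gene median of 0.07. All 31 small subunit genes and 44 of 46 large subunit genes outside the P stalk lay above 0. The direction was the same under each scaling, but offsets for the counted length took the median down to 0.17, with 69 of 80 above 0. Only Rpl10a kept its call with these offsets, at a log2FC of 0.87 and an adjusted p of 0.0383. The replicate block gave 28 members and a median of 0.46, with 24% of all genes called. With offsets for GC content 18 members passed, with 26.7% of all genes called, while Rpl13 and Rps20 lost their calls. Both calls held with GC offsets and the block together. Over the 17 alternatives the log2FC ran from 0.13 to 0.75 for Rpl13 and from 0.18 to 0.67 for Rps20.

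Fewer members passed with triacsin C when any of the 5 libraries was left out, and the share of all genes called fell from 11.7% to between 5.34% and 8.53%. A loss of power and the pull of a single library were not told apart. The log2FC ran from 0.36 to 0.43 for Rpl6 without 1 library, and from 0.93 to 1.42 for Rpl10a. Without vehicle replicate 2, 1 member passed (Rps20), and without vehicle replicate 3 another 1 (Rpl27). Without triacsin C replicate 1, 3 members passed, with Rpl27 and Rpl6 among those lost. Without replicate 2, 2 passed, with Rpl10a, Rpl6 and Rpl13 among those lost. Without replicate 3, 3 passed, with Rpl27, Rpl6 and Rpl13 lost. The adjusted p over all 17 alternatives ran from 3.11e-06 to 0.235 for Rpl10a, 1.17e-05 to 0.478 for Rps20, 0.00144 to 0.841 for Rpl13, 0.00334 to 0.412 for Rpl27 and 0.000494 to 0.362 for Rpl6.

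Etomoxir against vehicle asks the same of blocked fatty acid oxidation. Rps20 had normalized counts of 2176, 1889 and 1916 in etomoxir, beside 2174 and 1999 in vehicle, and Rpl10a had 342, 272 and 215 beside 321 and 229. The groups overlapped for each. By the edgeR quasi-likelihood test 0 of 80 members rose, against 0.0156% of all genes, and 0 fell, against 0.00782%. There were 0 members at an unadjusted p under 0.05, against 2.21% of all genes, and DESeq2 called 0, against 0.0905%. A log2FC above 0 was found in 30 members, against 51.6% of all genes. The median log2FC was -0.05 (quartiles -0.15 and 0.10), which is within the replicate SD of 0.088, and it was 0.00 with library totals alone, with 42 members above 0. It was 0.09 without vehicle replicate 2 and 0.02 without etomoxir replicate 3.

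**Figure D4:**
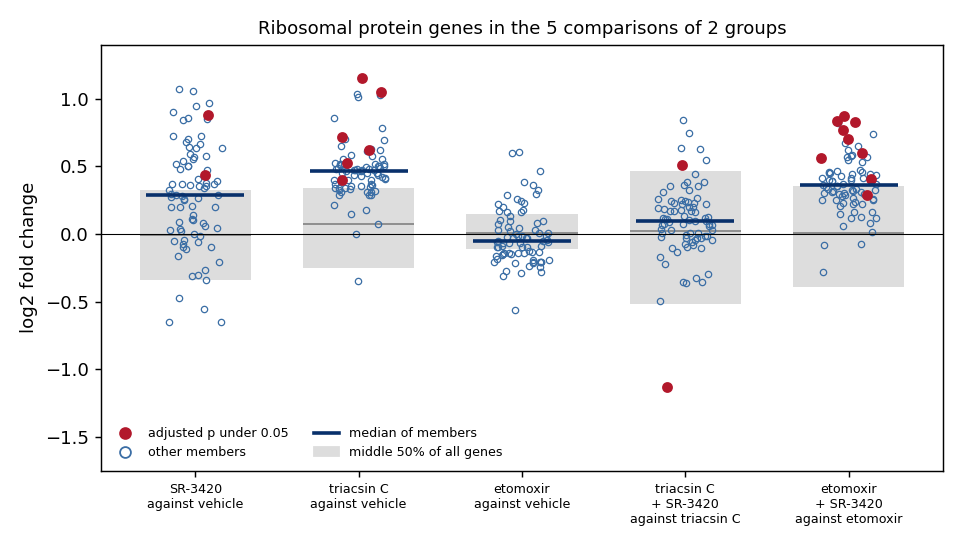
Log2 fold change of each of the 80 tested ribosomal protein genes in the 5 comparisons of 2 groups, with bars for the members' median, shading for the middle 50% of all genes, and filled points for an adjusted p under 0.05. The members' medians are 0.29 for SR-3420, 0.47 for triacsin C, -0.05 for etomoxir (0.00 with library totals alone), 0.10 for SR-3420 under triacsin C and 0.36 for SR-3420 under etomoxir.

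Triacsin C + SR-3420 against triacsin C asks what lipolysis added when fatty acids could not be activated. Rpl23a, a large subunit protein at the exit of the peptide tunnel, had normalized counts of 70.5, 90.6 and 86.5 in triacsin C and 30.1, 37.3 and 46.8 in triacsin C + SR-3420. Rps3a1 had 85.8, 77.9 and 70.3 in triacsin C and 109, 123 and 100.3 in triacsin C + SR-3420. The Rpl23a samples with SR-3420 all lay below those without it, and the Rps3a1 samples all above. Rpl23a fell to 0.457 of its level (log2FC -1.13 ± 0.20 SE, adjusted p = 0.000696, edgeR quasi-likelihood). Rps3a1 rose 1.42-fold (log2FC 0.51 ± 0.19 SE, adjusted p = 0.0451). So 1 of 80 members rose, against 17.3% of all genes, and 1 fell, against 19.7%. At an unadjusted p under 0.05 there were 6 members, against 46.5% of all genes, and DESeq2 called 5, against 27.6%, with Rpl12, Rpl6 and Rpl4 added, named after their values were seen.

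The Rpl23a call held in all 18 alternatives, with an adjusted p from 2.35e-05 to 0.0247. Without an inhibitor the gene also had lower values after SR-3420, at 40.3 and 34.4 against 59.4 and 57.8 in vehicle. Under etomoxir its values were 38.3, 38.5 and 48.7 with SR-3420 and 48.8, 50.6 and 53.1 without, and it passed the test in neither of these comparisons. With 32 copies and 5.51% unique windows, the reads of Rpl23a may come partly from elsewhere. The Rps3a1 call was lost without triacsin C replicate 1, 2 or 3 (adjusted p = 0.0574, 0.107 and 0.145, edgeR quasi-likelihood). It was also lost without triacsin C + SR-3420 replicate 1, 2 or 3 (0.0844, 0.0978 and 0.0551). These fits called 27.7% to 31.9% of all genes instead of 36.9%. The call was lost as well with library totals alone, without a filter, and with offsets for GC content, alone or with the block. Over all 18 alternatives the adjusted p of Rps3a1 ran from 0.00176 to 0.145 and its log2FC from 0.37 to 0.85.

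In this comparison 55 of 80 members had a log2FC above 0, against 50.8% of all genes, and the median was 0.10 (quartiles -0.03 and 0.23), with 0.02 for all genes. The direction was the same under each scaling. Offsets for the counted length moved the median to 0.48, with 75 members above 0 and 20 past the threshold, beside 33.5% of all genes called. The replicate block gave 9 members and a median of 0.09, beside 56.2% of all genes.

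Etomoxir + SR-3420 against etomoxir asks what lipolysis added when fatty acids could not enter mitochondria for oxidation. Rpl4, a large subunit protein that lines the peptide tunnel, had normalized counts of 5833, 6641 and 7232 in etomoxir and 8248, 10765 and 10139 in etomoxir + SR-3420. Rpl13 had 153, 181 and 203 in etomoxir and 247, 276 and 289 with SR-3420. Rps3a1 had 72.2, 58.5 and 54.3 in etomoxir and 91.0, 121 and 90.6 with SR-3420. In each gene every treated sample exceeded every etomoxir sample. Rpl9, a large subunit protein beside the P stalk, had 41.3, 63.0 and 82.6 in etomoxir and 91.5, 107 and 133 with SR-3420. Rpl12, a protein of the stalk base, had 256, 243 and 142 in etomoxir and 432, 358 and 303 with SR-3420. These too did not overlap, although within a group the replicates spread widely.

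Rpl9 rose 1.78-fold (log2FC 0.83 ± 0.28 SE, adjusted p = 0.0441, edgeR quasi-likelihood). Rpl12 rose 1.70-fold (log2FC 0.77 ± 0.25 SE, adjusted p = 0.0406) and Rps3a1 1.62-fold (log2FC 0.70 ± 0.19 SE, adjusted p = 0.0142). Rpl13 rose 1.51-fold (log2FC 0.60 ± 0.14 SE, adjusted p = 0.00822) and Rpl4 1.48-fold (log2FC 0.56 ± 0.14 SE, adjusted p = 0.00929). A further 3 members that passed are named after their values were seen. Rps28 rose with an adjusted p of 0.0171, at 21.6, 17.999 and 14.2 in etomoxir and 32.03, 36.4 and 31.0 with SR-3420. Rps20 rose 1.32-fold (adjusted p = 0.0100), at 2176, 1889 and 1916 in etomoxir and 2768, 2702 and 2452 with SR-3420. Rpl6 rose 1.22-fold (adjusted p = 0.0391), at 981, 943 and 896 in etomoxir and 1153, 1196 and 1102 with SR-3420. All 3 kept their groups apart.

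In all, 9 of 80 members rose, which compares with 12.5% of all genes, and 0 members fell by the edgeR test, against 12.8%. At an unadjusted p under 0.05 there were 16 members, against 37.2% of all genes, and DESeq2 called 13, against 20.3%. A count of 9 in 80 lies near the share of all genes, while 77 of 80 had a log2FC above 0, against 50.8%. The median was 0.36 (quartiles 0.26 and 0.47), with 0.01 for all genes, and it stayed above 0 under each scaling. The replicate block gave 29 members and a median of 0.37, with 45.2% of all genes called. Fitting the 2 groups alone gave 0 members, with 9.90% of all genes. With offsets for GC content 21 members passed, with 47.3% of all genes, while Rpl13 and Rps20 were lost. Both were also lost with offsets for GC content and counted length. With GC offsets and the block 45 members passed, with 57.2% of all genes, and Rps20 was lost. Over the 18 alternatives the log2FC ran from 0.49 to 0.74 for Rpl13 and from 0.34 to 0.56 for Rps20.

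Leaving out etomoxir replicate 2 left 2 calls, those of Rpl13 and Rpl4, and leaving out etomoxir + SR-3420 replicate 2 left 4, with Rpl12, Rpl6, Rpl9, Rps28 and Rps3a1 lost. Without etomoxir replicate 1, 8 members passed, with Rpl6 and Rpl9 lost. Without etomoxir replicate 3, 7 passed, with Rpl12, Rpl6 and Rps28 lost. Without etomoxir + SR-3420 replicate 1, 10 passed, with Rpl12 and Rpl6 lost, and without replicate 3, 9 passed, with Rpl9 among those lost. The shares of all genes called without etomoxir replicates 1, 2 and 3 were 20.8%, 17.3% and 25%, and without etomoxir + SR-3420 replicates 1, 2 and 3 they were 24%, 15.5% and 24.6%. Over the 18 alternatives the adjusted p ran from 1.64e-05 to 0.0971 for Rpl4, 0.000333 to 0.101 for Rpl13, 7.19e-05 to 0.424 for Rps20, 0.00175 to 0.0956 for Rps3a1, 6.31e-05 to 0.118 for Rpl12, 0.000558 to 0.155 for Rpl9, 0.00183 to 0.0828 for Rps28 and 0.000661 to 0.240 for Rpl6.

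**Figure D5:**
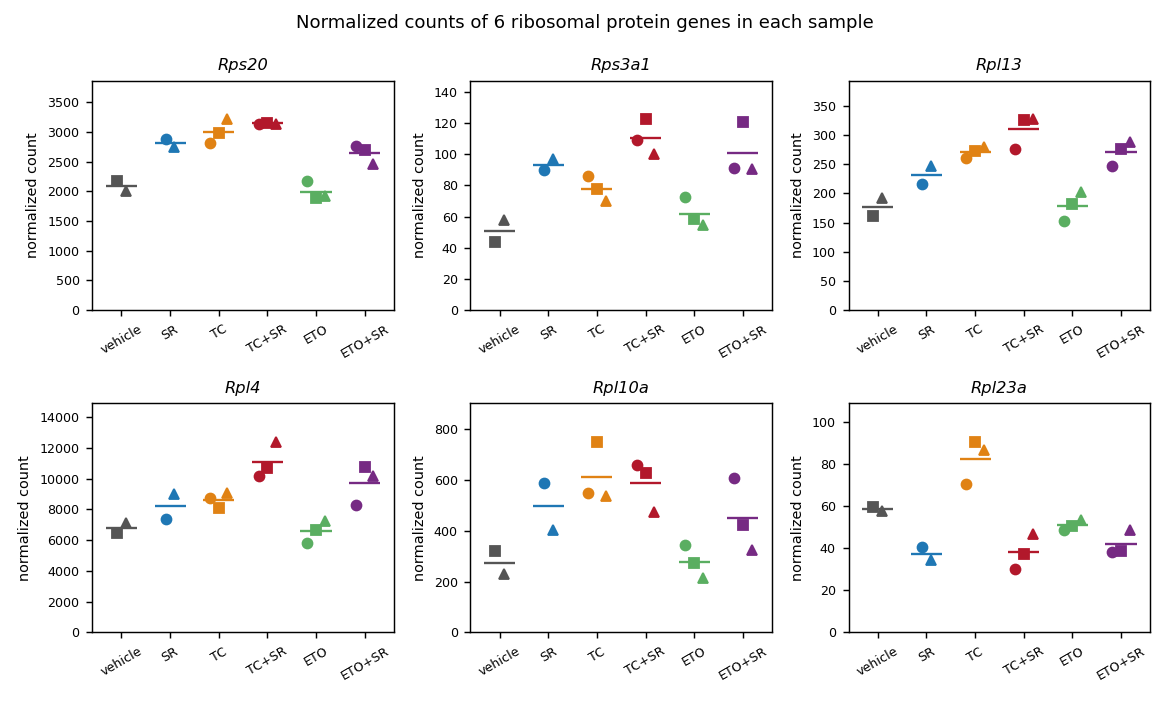
Normalized counts of Rps20, Rps3a1, Rpl13, Rpl4, Rpl10a and Rpl23a in each of the 16 samples, by group (SR, SR-3420; TC, triacsin C; ETO, etomoxir), with bars for group means and circles, squares and triangles for replicates 1, 2 and 3. Rps20 lay between 1889 and 2176 in the vehicle and etomoxir samples and between 2452 and 3214 in all others.

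Whether the response to SR-3420 itself differed with an inhibitor was tested as a difference of responses. With triacsin C against without inhibitor, 0 of 80 members passed in either direction by edgeR, against 1.24% of all genes higher and 1.27% lower. There were 2 members at an unadjusted p under 0.05, against 16.7% of all genes, and DESeq2 called 0, against 4.31%. A difference above 0 was found in 24 members, against 47.3% of all genes, and the median difference was -0.24, with -0.04 for all genes. Offsets for the counted length turned this median to 0.05, and library totals alone gave -0.12. With the replicate block 1 member passed (and 13.1% of all genes), Rpl10a, lower, which is named after its values were seen. With etomoxir against without inhibitor, 0 members passed by edgeR, against 0% of all genes higher and 0% lower. There were 0 members at an unadjusted p under 0.05, against 2.4% of all genes, and DESeq2 called 0, against 0.0373%. A difference above 0 was found in 44 members, against 49.9% of all genes, and the median was 0.06, with values from -0.10 to 0.15 when 1 library was left out. It was -0.10 without vehicle replicate 2, -0.03 without etomoxir replicate 3 and -0.02 without etomoxir + SR-3420 replicate 1.

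Some comparisons share no sample, so that their called members can be set beside each other. They are still tests of 1 fit, in which the spread of a gene was estimated over all 16 samples. A gene of low spread passes more easily in each of them, so the overlaps are not independent. Rpl6, Rps20 and Rpl13 had within-group SDs of 0.07, 0.08 and 0.14, against a median of 0.37 in the members. SR-3420 against vehicle and etomoxir + SR-3420 against etomoxir had Rps20 and Rps3a1 in common, which is 2 of 2 and 2 of 9. Of all genes that rose, 94.2% and 35.8% were shared. SR-3420 against vehicle and triacsin C + SR-3420 against triacsin C had Rps3a1, which is 1 of 2 and 1 of 1 that rose, against 88.0% and 24.2% of all genes that rose. Triacsin C against vehicle and etomoxir + SR-3420 against etomoxir had 4 members in common, which is 4 of 6 and 4 of 9, Rpl13, Rpl6 and Rps20 among them, against 32.1% and 12.3% of all genes that rose. SR-3420, triacsin C and etomoxir against vehicle share the vehicle samples, and their values stand side by side without a count of this kind.

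By subunit, the medians were close to each other. The 31 tested small subunit genes had a median log2FC of 0.35 with SR-3420, 0.45 with triacsin C, 0.11 with SR-3420 under triacsin C and 0.40 with SR-3420 under etomoxir. The 46 large subunit genes outside the P stalk had 0.26, 0.47, 0.11 and 0.33. These medians stayed above 0 under each alternative. For etomoxir alone they were -0.06 and -0.04, and both turned above 0 with library totals alone. In the difference of responses with triacsin C they were -0.30 and -0.17, both above 0 with offsets for the counted length. In the difference with etomoxir they were -0.03 and 0.14, the first turning above 0 with library totals alone.

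In the small subunit a panel of genes was followed whatever their values, and none of them passed the edgeR test without a block, covariate or offsets. With the replicate block Rps3 passed for SR-3420, triacsin C and SR-3420 under etomoxir, Rps19 for triacsin C and SR-3420 under triacsin C, and Rpsa for SR-3420 under etomoxir. Rpsa, which also serves as a laminin receptor, had normalized counts of 115.6 and 52.6 in vehicle, 202 and 115.8 in SR-3420, and 123, 117 and 124 in triacsin C. Rps3, which sits at the mRNA entry and also acts in DNA repair, had 6785 and 5233 in vehicle, 7699 and 7538 in SR-3420, and 7747, 8740 and 7890 in triacsin C. Rps6, the substrate of the S6 kinases, had 58.3 and 77.5 in vehicle, 75.6 and 90.5 in SR-3420, and 78.1, 96.5 and 115 in triacsin C. The vehicle values of Rps3 lay below all of these treated ones, those of Rpsa did so narrowly in vehicle replicate 2, and those of Rps6 overlapped the SR-3420 samples. Rps14, a protein of the decoding platform, had 4038 and 2323 in vehicle, 4640 and 3587 in SR-3420, and 3929, 5283 and 3849 in triacsin C. Rps19, mutated in Diamond-Blackfan anaemia, had 1378 and 1183 in vehicle, 779 and 1241 in SR-3420, and 1612, 1633 and 1814 in triacsin C. Rps27a, made as a fusion with ubiquitin, had 52.1 and 67.0 in vehicle, 44.5 and 76.0 in SR-3420, and 123, 67.2 and 79.98 in triacsin C. For Rps19 the triacsin C samples were the highest, and the SR-3420 samples did not exceed both vehicle samples. In triacsin C + SR-3420 Rps19 had 1127, 1358 and 1481, all below the triacsin C samples. Under etomoxir Rps3 had 6235, 6063 and 4676 without SR-3420 and 7501, 7672 and 5932 with it, so that these groups overlapped. The Rps14 and Rps27a vehicle samples overlapped the SR-3420 samples as well.

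In the large subunit the panel also gave no call by that test. With the replicate block Rpl13a passed for triacsin C and for SR-3420 under etomoxir, and Rpl10 for SR-3420 under triacsin C. Rpl3, a protein of the peptidyl transferase region, had normalized counts of 1180 and 803 in vehicle, 1623 and 1223 in SR-3420, and 1173, 1607 and 1191 in triacsin C. Rpl10, which joins the subunit last before it becomes active, had 54.2 and 65.7 in vehicle, 65.5 and 93.2 in SR-3420, and 101, 57.5 and 94.0 in triacsin C. Rpl13a, known from the interferon-driven control of translation, had 2863 and 2711 in vehicle, 2376 and 3366 in SR-3420, and 3496, 3776 and 3985 in triacsin C. The Rpl13a samples with triacsin C lay above the vehicle samples, while in SR-3420 they fell on either side of them.

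Rpl5 and Rpl11 form a particle with 5S rRNA that can also bind MDM2, and both had few reads. Rpl5 had 21.9 and 47.3 normalized counts in vehicle, 29.4 and 66.0 in SR-3420, 84.3, 39.9 and 63.8 in triacsin C, and 40.3, 31.5 and 85.0 in etomoxir. Rpl11 had 29.2 and 15.8 in vehicle, 21.0 and 33.5 in SR-3420, 26.0, 37.0 and 43.2 in triacsin C, and 20.6, 22.5 and 16.5 in etomoxir. The vehicle and SR-3420 samples overlapped for both genes, and neither passed the edgeR test with or without the replicate block. With GC offsets Rpl5 passed for triacsin C, and with the depth covariate it passed for SR-3420 under etomoxir.

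Among the P stalk genes, Rplp0 had 20857 and 12897 normalized counts in vehicle, 33434 and 20122 in SR-3420, 22199, 30332 and 19310 in triacsin C, and 21109, 15737 and 10557 in etomoxir. Rplp1, an acidic protein of the stalk tip, had 6090 and 3586 in vehicle, 11789 and 5540 in SR-3420, 6094, 8318 and 5713 in triacsin C, and 6439, 4249 and 2904 in etomoxir. Rplp2, its partner, had 1802 and 1060 in vehicle, 2776 and 1384 in SR-3420, 1783, 2656 and 1735 in triacsin C, and 1652, 1248 and 741 in etomoxir. In each gene SR-3420 replicate 1 was far above replicate 3, and etomoxir replicate 3 was the lowest of all 16 samples. The median log2FC of the 3 genes was 0.67 with SR-3420, 0.50 with triacsin C and 0.29 with SR-3420 under etomoxir, and it was -0.01 with SR-3420 under triacsin C, where 1 of the 3 lay above 0. The value for SR-3420 dropped to 0.20 without SR-3420 replicate 1 and was 0.99 without replicate 3. For triacsin C it ran from 0.05 to 0.90 over the alternatives, and with SR-3420 under triacsin C it was above 0 in 12 of 18. The value under etomoxir turned to -0.04 without etomoxir + SR-3420 replicate 1 and to -0.27 with the log2 total count as a covariate. By edgeR and by DESeq2 0 of the 3 passed in these comparisons, with 0 at an unadjusted p under 0.05. Rplp0 did pass in the block fit, for SR-3420 and for SR-3420 under etomoxir.

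The rule also takes in paralogues, and 4 of them were tested. Rpl22l1 had 27.1 and 99.9 normalized counts in vehicle and 17.6 and 86.8 in SR-3420, while its parent Rpl22 had 1786 and 2042 in vehicle and 1331 and 2304 in SR-3420. Rps27l, a p53 target, had 536 and 899 in vehicle and 218 and 695 in SR-3420. Rpl36al had 828 and 451 in vehicle and 841 and 720 in SR-3420, while Rpl36a had 45.8 and 28.9 in vehicle and 41.2 and 37.1 in SR-3420. The groups overlapped for all 5 of these genes. Rpl7l1 had 1254 and 1589 in vehicle and 1095 and 1658 in SR-3420, and Rpl7 had 1051 and 1037 in vehicle and 1178 and 1126 in SR-3420. Rpl39 had 211 and 260 in vehicle and 101 and 221 in SR-3420, and Rps4x had 1115 and 1298 in vehicle and 880 and 1532 in SR-3420. Only Rpl7 among these 4 had its SR-3420 samples above both vehicle samples. Per counted kilobase Rps27l (1530) and Rpl36al (1448) were well above Rpl7l1 (638) and Rpl22l1 (206). No paralogue or parent passed the edgeR test in the fit to all 16 samples without a block, covariate or offsets, while DESeq2 called Rpl7 in etomoxir + SR-3420 against etomoxir. The replicate block called Rpl22, Rpl7, Rpl7l1, Rpl36al and Rps4x for triacsin C, and Rpl7 and Rps4x for SR-3420 under etomoxir.

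Members with a long pyrimidine run near the start were set beside those without. Of the tested members 31 had a run of at least 8 bases and 49 did not. Their median log2FC was 0.21 against 0.37 with SR-3420, 0.45 against 0.47 with triacsin C, 0.18 against 0.08 with SR-3420 under triacsin C, and 0.39 against 0.33 with SR-3420 under etomoxir. Neither set was the higher one throughout. All of these medians were above 0 under each alternative.

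Other mRNAs with a TOP tract, mostly translation factors, were followed as a list of 25 tested genes. In SR-3420 against vehicle 0 of them passed by edgeR, against 7.54% of all genes. There 3 were at an unadjusted p under 0.05, against 21.8%, and DESeq2 called 2, against 8.44%, and the median log2FC was 0.30. In triacsin C against vehicle 2 rose, Impdh2 and Eef1b2, against 4.77% of all genes, with a median of 0.34. In triacsin C + SR-3420 against triacsin C 4 rose (Npm1, Nap1l1, Eif4b and Cct2), against 17.3% of all genes, with a median of 0.21. In etomoxir + SR-3420 against etomoxir 6 rose, against 12.5% of all genes, with a median of 0.32. These medians lay above 0 under each alternative. Etomoxir alone gave 0 calls by edgeR and by DESeq2 and 0 genes at an unadjusted p under 0.05, and both differences of responses likewise.

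Eif4b, which helps the helicase of the initiation complex, had normalized counts of 4865, 4597 and 4785 in triacsin C and 6302, 6608 and 7037 in triacsin C + SR-3420. Under etomoxir it had 4031, 4438 and 4581 without SR-3420 and 5719, 6707 and 6339 with it. The groups were apart in both. Eif4b rose by a log2FC of 0.49 ± 0.11 SE under triacsin C (adjusted p = 0.00286, edgeR quasi-likelihood) and by 0.52 ± 0.11 SE under etomoxir (adjusted p = 0.00287). Its call under triacsin C held in all 18 alternatives. Impdh2, an enzyme of guanine nucleotide synthesis, rose with triacsin C by 0.78 ± 0.19 SE (adjusted p = 0.0149), from 205 and 176 to 312, 280 and 392. It passed no longer without vehicle replicate 2, vehicle replicate 3 or triacsin C replicate 3. The list's count in triacsin C against vehicle was 0 without each of these 3 libraries and 1 without triacsin C replicate 1 or 2. Under triacsin C it was 2 without triacsin C replicate 1, 1 without triacsin C replicate 2 and 1 without triacsin C + SR-3420 replicate 3. Under etomoxir it was 3 without etomoxir replicate 1, 2 without etomoxir replicate 2, 2 without etomoxir + SR-3420 replicate 2 and 3 without etomoxir + SR-3420 replicate 3. Calls over all genes became fewer in these fits as well.

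The mTORC1 pathway, which controls the translation of these messages, was followed as 25 tested genes. With SR-3420 Ddit4 and Sesn2 rose and Sesn1 and Sesn3 fell, with triacsin C 2 rose and 5 fell, with SR-3420 under triacsin C 6 rose and 2 fell, and with SR-3420 under etomoxir 3 rose and 3 fell. Of all genes, 7.54%, 11.7%, 36.9% and 25.3% passed in these 4 comparisons in either direction. Ddit4, an inhibitor of mTORC1 induced by stress, had normalized counts of 1616 and 987 in vehicle and 7311 and 4121 in SR-3420. Under etomoxir it had 1159, 930 and 530 without SR-3420 and 7181, 4432 and 5108 with it. In either pair the treated samples were all higher. Ddit4 rose by a log2FC of 2.13 ± 0.38 SE with SR-3420 (adjusted p = 0.00461, edgeR quasi-likelihood) and by 2.67 ± 0.32 SE under etomoxir (adjusted p = 9.03e-05). Sesn1, a leucine sensor that restrains mTORC1, had 680 and 679 in vehicle and 299 and 305 in SR-3420. Sesn1 fell by 1.17 on the log2 scale (adjusted p = 0.00104). Depdc5, part of a brake on mTORC1, fell with triacsin C by 1.19 on the log2 scale (adjusted p = 0.000138, edgeR quasi-likelihood), from 815 and 691 to 311, 339 and 340. Deptor (log2FC -1.59, adjusted p = 0.00186), Rptor (log2FC -1.01, adjusted p = 0.0278) and Sesn3 also fell with triacsin C by that test. The 2 that rose were Ddit4 and Ddit4l. The activity of mTORC1 was not measured.

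The counts of this list moved with single libraries. With SR-3420 the 4 calls became 2 without vehicle replicate 2, 2 without vehicle replicate 3, 1 without SR-3420 replicate 1 and 2 without SR-3420 replicate 3, and the Ddit4 call was lost without vehicle replicate 3 or SR-3420 replicate 1. With triacsin C the 7 calls became 3 without vehicle replicate 2, 3 without vehicle replicate 3, 3 without triacsin C replicate 1, 4 without replicate 2 and 3 without replicate 3. With SR-3420 under triacsin C the 8 calls became 5 without triacsin C replicate 3. All of these fits also called fewer genes in total. Etomoxir alone gave 0 calls by edgeR and DESeq2, with 0 at an unadjusted p under 0.05, against 2.21% of all genes. In the difference of responses with triacsin C 1 gene passed, against 2.51% of all genes, Depdc5 (0.89 ± 0.21 SE, adjusted p = 0.0414), and that call was lost in 14 of 22 alternatives, among them without any single one of the vehicle, SR-3420 and triacsin C samples and without triacsin C + SR-3420 replicate 1 or 3.

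Regulators of ribosomal protein gene transcription were followed as 17 tested genes. Myc, which drives ribosome production, had normalized counts of 1370 and 1146 in vehicle and 5350 and 4977 in SR-3420. It had 2001, 2551 and 2194 in triacsin C and 8903, 8600 and 7555 in triacsin C + SR-3420. Under etomoxir it had 1351, 1420 and 1094 without SR-3420 and 7227, 6790 and 5219 with it. All samples with SR-3420 were above all without it. Myc rose by a log2FC of 2.04 ± 0.19 SE with SR-3420 (adjusted p = 5.37e-05, edgeR quasi-likelihood), 1.89 ± 0.16 SE under triacsin C (adjusted p = 3.98e-06) and 2.32 ± 0.16 SE under etomoxir (adjusted p = 1.49e-06), and these calls held in every alternative. With triacsin C alone it rose by 0.84 ± 0.18 SE (adjusted p = 0.00638), a call lost without vehicle replicate 3. In all, 1 regulator rose and 2 fell with SR-3420, 1 rose and 2 fell with triacsin C, 5 rose and 3 fell with SR-3420 under triacsin C, and 2 rose and 2 fell with SR-3420 under etomoxir. The shares of all genes that passed in either direction were 7.54%, 11.7%, 36.9% and 25.3% in that order. Rbl2, a pocket protein that represses E2F targets, fell with triacsin C by 1.14 on the log2 scale (adjusted p = 0.000257). The SR-3420 count of 3 became 1 without vehicle replicate 2, vehicle replicate 3, SR-3420 replicate 1 or SR-3420 replicate 3, and the triacsin C count of 3 became 1 without vehicle replicate 3. The count of 8 under triacsin C became 5 without triacsin C + SR-3420 replicate 2 or 3, and each of these fits called fewer genes in total too. Etomoxir alone gave 0 calls by edgeR and DESeq2, with 1 at an unadjusted p under 0.05, against 2.21% of all genes.

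Chaperones that escort single ribosomal proteins were followed as 11 tested genes. With SR-3420 and with triacsin C 0 passed by edgeR, against 7.54% and 11.7% of all genes, and 0 by DESeq2, against 8.44% and 10.6%. In each 2 were at an unadjusted p under 0.05, against 21.8% and 24.3%. Under triacsin C 3 rose with SR-3420: Ltv1, an assembly factor of the small subunit, from 544, 482 and 708 to 785, 914 and 1253 (adjusted p = 0.0418), Nap1l1 (adjusted p = 0.0192) and Heatr3, which carries Rpl5 (adjusted p = 0.0398). Etomoxir alone gave 0 calls by edgeR and DESeq2, with 0 at an unadjusted p under 0.05, against 2.21% of all genes. Under etomoxir 2 rose with SR-3420, Nap1l1 (adjusted p = 0.0392) and Rrs1, which helps to bring the 5S particle into the large subunit (adjusted p = 0.0275). Of all genes, 17.3% rose with SR-3420 under triacsin C and 12.5% under etomoxir. The count of 3 became 0 without triacsin C replicate 1, triacsin C replicate 2 or triacsin C + SR-3420 replicate 3, and 1 without triacsin C + SR-3420 replicate 2. The count of 2 became 0 without etomoxir replicate 2 or etomoxir + SR-3420 replicate 2, and 1 without etomoxir replicate 1, etomoxir replicate 3 or etomoxir + SR-3420 replicate 1, where calls over all genes were fewer as well.

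The factor p53 (Trp53), which free Rpl5 and Rpl11 can stabilize, and its targets were followed as 14 tested genes. The cells carry SV40 large T antigen and the activity of p53 was not measured, so the values are mRNA levels only. With SR-3420 3 rose and 1 fell, with triacsin C 2 rose and 1 fell, with SR-3420 under triacsin C 4 rose and 3 fell, and with SR-3420 under etomoxir 5 rose and 2 fell, Trp53 being among those that rose in the last 2. These counts stand beside 7.54%, 11.7%, 36.9% and 25.3% of all genes that passed. Gdf15, a stress hormone that other factors also induce, had normalized counts of 794 and 367 in vehicle and 5754 and 3338 in SR-3420. It rose by a log2FC of 2.97 ± 0.48 SE (adjusted p = 0.00252, edgeR quasi-likelihood). Cdkn1a, a cell cycle inhibitor, rose with triacsin C by 0.97 ± 0.16 SE (adjusted p = 0.00140), a call that held in all 17 alternatives. Zmat3, another target, fell with SR-3420 under triacsin C by 0.64 on the log2 scale (adjusted p = 0.000801). Sesn1 and Sesn2 stand in this list and in that of mTORC1. The count of 4 with SR-3420 became 2 without vehicle replicate 3 or SR-3420 replicate 1, in fits with fewer calls over all genes. Etomoxir alone gave 0 calls by edgeR and DESeq2, with 1 at an unadjusted p under 0.05, against 2.21% of all genes.

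Markers of cell types were measured beside these results, and their part in the result was not tested. The 11 brown adipocyte markers, with Fabp4 the most abundant, summed to 174490 and 164618 normalized counts in vehicle, 124153 and 121279 in SR-3420, and 186473, 195895 and 196674 in triacsin C. Their sums were 69930, 72312 and 78439 in triacsin C + SR-3420, 169132, 158177 and 180541 in etomoxir, and 85430, 67572 and 114282 in etomoxir + SR-3420. Every sum with SR-3420 was below every sum without it, and 0 of the markers were at 0 in all samples. The sum follows its most abundant genes, and the markers did not all fall. Fabp4, Adipoq, Pparg and Cox8b were lower in both SR-3420 samples than in both vehicle samples. Elovl3 was higher, at 151 and 112 in vehicle and 230 and 205 in SR-3420. So were Ppargc1a (725 and 745, then 874 and 820) and Ucp1 (28.1 and 6.57, then 34.4 and 29.9). Of 10 tested, 2 fell with SR-3420, 3 with triacsin C, 5 with SR-3420 under triacsin C, where 1 rose, and 5 with SR-3420 under etomoxir, while 2.79%, 6.94%, 19.7% and 12.8% of all genes fell.

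The 8 preadipocyte or fibroblast markers, with Col1a1 the most abundant, summed to 26985 and 23340 in vehicle, 57871 and 42104 in SR-3420, and 37469, 32954 and 28509 in triacsin C. Their sums were 65529, 55010 and 43780 in triacsin C + SR-3420, 32553, 23597 and 15776 in etomoxir, and 67937, 49577 and 33451 in etomoxir + SR-3420. In each arm the samples with SR-3420 lay above those without it. Of 8 tested, 3 rose with SR-3420 under triacsin C and 5 under etomoxir, against 17.3% and 12.5% of all genes.

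The 5 proliferation markers, with Mcm2 the most abundant, summed to 11644 and 11430 in vehicle, 18556 and 15405 in SR-3420, and 12962, 13560 and 12744 in triacsin C. Their sums were 20088, 19411 and 18279 in triacsin C + SR-3420, 12034, 11095 and 11028 in etomoxir, and 18361, 18519 and 15558 in etomoxir + SR-3420. The sum was higher in all samples with SR-3420, whereas Mki67 and Top2a overlapped between vehicle and SR-3420, and of the 5 tested 1 rose, Ccnb1 with SR-3420 under triacsin C (adjusted p = 0.0460). Macrophage markers were low, with 5 in the table and 2 tested. Cd68, the most abundant of them, had 69.8 and 46.0 normalized counts in vehicle and 211, 235 and 217 in triacsin C. It rose with triacsin C (adjusted p = 0.000366, edgeR quasi-likelihood). Csf1r overlapped between these groups, at 15.6 and 7.88 in vehicle and 16.9, 13.6 and 20.5 in triacsin C. Ptprc, Lyz2 and Emr1 had at most 6.82 in these groups, so the rise of Cd68 was not shared by the list. The 3 endothelial markers, with Kdr the most abundant, summed to between 12.3 and 46.9 in the 16 samples. Kdr, the 1 tested, rose with SR-3420 under triacsin C (adjusted p = 0.0246) and under etomoxir (adjusted p = 0.00681). No marker of either list was at 0 in all samples.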

How the data were processed

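RNA was sequenced from 16 samples of mouse brown adipocytes in 6 groups. The authors aligned the reads to mm9 with STAR 2.4.2a, kept 1 read per position and length with HOMER, and deposited raw counts per gene, used here without change. Per the file headers, other columns give each gene's counted length, start and end in bases, deposited by the authors. Total counts ran from 9452861 to 25670624. How reads with several matches were counted is not stated.

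Genes were filtered with filterByExpr, scaled by TMM and tested with edgeR 4.0.16 (R 4.3.3) by quasi-likelihood with 6 group means; p-values were adjusted by Benjamini-Hochberg over 12786 genes, and an adjusted p under 0.05 was a call. The procedure was tested on simulated counts with known changes. These had no trend with GC content or counted length and no replicate effect, so the simulation does not show how the test behaves with them. Copies were searched with blastn 2.17.0; windows and GC content came from the mm9 genome. Figures were drawn with matplotlib 3.10.9, with pandas 2.3.3 and Python 3.11.15.

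Named members were, per comparison, up to 5 per direction with a call, groups that did not overlap and 50 or more normalized counts on average, taken by size of change; a panel by role; the paralogues and their parents; and the members with the highest and lowest level. Of the other lists, genes came from the up to 4 per direction with the largest change among those called. Members and lists were chosen with earlier results of these data known.

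Alternatives were DESeq2 size factors, library totals alone, the DESeq2 1.42.0 Wald test, no filter, the compared groups alone, a replicate block, log2 total count as a covariate, offsets for the counted length, each sample left out, and, for medians, members without overlaps or of lower level. Offsets for GC content, alone, with the block or with the length, length offsets with the block, and members with at least 50% unique windows were added after seeing the data.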

Additional observations from a re-analysis of the deposited data

How the results depend on the processing

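The members called kept their sign in all 332 alternative values, with 213 on the same side of the threshold and 119 no longer past it. Of the members' counts, 72 of 130 alternatives were within 1.5 times the count first given. Most of these were counts of 0 that stayed at 0, for etomoxir alone and for the differences of responses. They say nothing of the comparisons with calls. For SR-3420 against vehicle every alternative count lay outside that limit. Of the members' medians 128 of 151 moved by less than the SD between replicates. The cause was not tested for any of the following changes. The share of all genes called in the same fit stands in brackets. For SR-3420 against vehicle the count of 2 (7.54%) became 1 with DESeq2 size factors (7.55%), 0 with library totals alone (8.13%), 0 without a filter (3.73%), 12 with the replicate block (19.1%), 7 with the depth covariate (14.4%), 4 with length offsets (7.73%), 0 with the compared groups alone (0.378%), 6 with GC offsets (23.7%), 25 with GC offsets and block (33.0%), 13 with GC and length offsets (22.2%), 21 with length offsets and block (20.2%), and 4 by DESeq2 (8.44%). For triacsin C against vehicle 6 (11.7%) became 3 with library totals alone (12.0%), 2 without a filter (6.77%), 28 with the block (24%), 14 with the depth covariate (18.6%), 1 with length offsets (9.85%), 2 with the compared groups alone (11.9%), 18 with GC offsets (26.7%), 50 with GC offsets and block (37.7%), and 1 with GC and length offsets (24.4%). For triacsin C + SR-3420 against triacsin C 2 (36.9%) became 9 with the block (56.2%), 6 with the depth covariate (49.2%), 20 with length offsets (33.5%), 4 with the compared groups alone (45.9%), 5 with GC offsets (55.1%), 17 with GC offsets and block (63.5%), 35 with GC and length offsets (51.1%), 43 with length offsets and block (52.8%), and 5 by DESeq2 (27.6%). For etomoxir + SR-3420 against etomoxir 9 (25.3%) became 29 with the block (45.2%), 33 with the depth covariate (44.0%), 16 with length offsets (25.4%), 0 with the compared groups alone (9.90%), 21 with GC offsets (47.3%), 45 with GC offsets and block (57.2%), 37 with GC and length offsets (45.1%), and 49 with length offsets and block (44.9%). For the difference of responses with triacsin C 0 (2.51%) became 1 with the block (13.1%), 1 with GC offsets (12.0%), and 3 with both (21.2%).

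Medians moved for SR-3420 against vehicle from 0.29 to 0.18 with library totals alone and 0.39 with length offsets and block. For triacsin C they moved from 0.47 to 0.17 with length offsets, 0.17 with GC and length offsets, and 0.20 with length offsets and block. For SR-3420 under triacsin C they moved from 0.10 to 0.48, 0.49 and 0.47 in the same order, and to 0.19 without the members of higher level. Under etomoxir they moved from 0.36 to 0.48, 0.51 and 0.48. For the difference with triacsin C they moved from -0.24 to -0.12 with library totals alone, 0.051 with length offsets, 0.14 with GC and length offsets, and 0.035 with length offsets and block. For the difference with etomoxir they moved from 0.06 to 0.19 with GC and length offsets.

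Leaving out 1 sample at a time, where a lone sample was assumed to vary like the other groups, gave counts of 0 to 0 for SR-3420, 1 to 3 for triacsin C, 0 to 0 for etomoxir, 1 to 1 for SR-3420 under triacsin C, 2 to 10 under etomoxir, and 0 to 0 for both differences. The medians ran from 0.22 to 0.39, 0.33 to 0.52, -0.13 to 0.094, 0.07 to 0.14, 0.29 to 0.44, -0.36 to -0.13 and -0.10 to 0.15 in that order. With 2 samples in vehicle and in SR-3420, and few reads over short counted lengths, small changes of low members were not detectable at this depth.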
